A study of Mus musculus with 6 samples.

Results

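The mesothelial markers examined here were Upk1b, Upk3b, Lrrn4 and Msln, together with the transcription factor gene Wt1 and the simple keratin genes Krt19, Krt8 and Krt18. They were chosen by name as genes that mark the mesothelium, the cell sheet that covers the lung and lines the pleural cavity. The choice was made with earlier results of these data known. All 8 were found among the 14870 genes of the deposited table, and all 8 passed the filter on low values that left 13906 genes for testing. To study the role of the mitotic kinase AURKB in fibrotic fibroblasts, RNA was sequenced from lung-resident fibroblasts of TGFα mice, 3 libraries with control siRNA and 3 with Aurkb siRNA. In these mice a Clara cell promoter (CCSP) drives rtTA in the airway epithelium, and doxycycline (Dox) then switches on a TetO-TGFα transgene. Both groups carried both transgenes, had 10 days of Dox, and differed only in the stealth siRNA, which was transfected with a lipid reagent for 72 h. The fibroblasts were primary stromal cultures, and the labels do not tell if the 3 replicates of each siRNA were grown from different mice or only in different dishes. The spread behind the p-values is thus that between libraries and may be technical.

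Mesothelial cells are flat cells of mesodermal origin that keep keratin filaments and surface proteins of epithelia while they share much of their gene expression with fibroblasts. WT1 is a zinc finger transcription factor that is active in the mesothelium, the kidney and the gonads from early development on, and the study examined it as a regulator of AURKB. Keratin filaments are built from pairs of a type II keratin (such as KRT7 or KRT8) and a type I keratin (such as KRT18 or KRT19), and these 4 are the keratins of simple, single-layered epithelia.

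With Aurkb siRNA, transcripts of Upk1b and Lrrn4 fell to 58.1% and 62.9% of the control level, and those of Krt19 rose to 198% from a low level. Wt1 was at 68.7% of control, past the test but short of the minimum fold set here. The groups overlapped for Upk3b, Msln, Krt8 and Krt18. Upk1b went from 8354 ± 1009 normalized counts to 4857 ± 1036 (SD, n = 3 libraries each), and Krt19 from 86.3 ± 26.2 to 171 ± 24.5. A normalized count is the number of reads of a gene divided by the size factor of its library. Genes were counted as called, higher or lower, where limma gave a p of at most 0.05 after Benjamini-Hochberg adjustment and the change reached 1.5-fold.

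The promoters of the members that matched by symbol (4 of 8, from RefSeq on GRCm38.p6) were searched for GNGGGNGNG, the GC-rich motif shared by WT1 and the EGR proteins, on both strands. Lrrn4 is shown because it was called lower, and Krt8 and Krt18 because they encode filament partners and lie 23.9 kb apart. Each sequence runs from 250 bases before to 50 bases after the start, with the matches to the motif in capitals. For Krt8, Krt18 and Upk3b this start is the outer end of the RefSeq gene span, and for Lrrn4 it is a start that lies 13.1 kb inside the span.
Lrrn4: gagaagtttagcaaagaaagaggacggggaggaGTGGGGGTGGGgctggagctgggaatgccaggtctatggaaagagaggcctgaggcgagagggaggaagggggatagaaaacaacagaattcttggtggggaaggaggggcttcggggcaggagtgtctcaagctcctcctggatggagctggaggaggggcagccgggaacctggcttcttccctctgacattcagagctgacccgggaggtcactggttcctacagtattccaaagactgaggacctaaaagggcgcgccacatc
Krt8: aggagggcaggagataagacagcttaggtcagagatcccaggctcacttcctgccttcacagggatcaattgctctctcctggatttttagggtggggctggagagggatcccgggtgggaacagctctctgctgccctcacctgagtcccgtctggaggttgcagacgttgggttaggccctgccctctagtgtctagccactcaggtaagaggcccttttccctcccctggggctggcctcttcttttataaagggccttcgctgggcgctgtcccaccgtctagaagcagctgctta
Krt18: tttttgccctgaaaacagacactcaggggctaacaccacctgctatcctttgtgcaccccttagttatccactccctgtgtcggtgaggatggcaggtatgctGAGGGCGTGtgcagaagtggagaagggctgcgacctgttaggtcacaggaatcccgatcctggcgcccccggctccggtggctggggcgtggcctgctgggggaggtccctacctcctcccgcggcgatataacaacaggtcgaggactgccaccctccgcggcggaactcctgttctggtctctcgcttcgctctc
These windows are chr2:132880813-132881112 on the minus strand for Lrrn4, chr15:102004293-102004592 on the minus strand for Krt8 and chr15:102027966-102028265 on the plus strand for Krt18. The Lrrn4 window held 2 overlapping matches (GTGGGGGTG and GGGGGTGGG, beginning at positions -217 and -215 from the start), the Krt18 window held 1 (GAGGGCGTG, beginning at position -147), and the windows of Krt8 and Upk3b (chr5:136038246-136038545, plus strand) held 0. The motif is common, with at least 1 match in 43.8% of the 32851 promoters of the table. The G and C content was 58.0% for Lrrn4 and Krt8, 58.7% for Upk3b and 61.3% for Krt18, against a median of 52.7% over all promoters. A match describes letters only, and binding of WT1 was not measured in these libraries.

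The level of each gene was compared per length, as RPKM, in which reads are scaled by transcript length and sequencing depth. With control siRNA the mean RPKM was 174 ± 21.6 for Upk1b, 129 ± 30.2 for Upk3b, 102 ± 8.06 for Lrrn4, 47.3 ± 10.5 for Msln and 39.2 ± 3.37 for Wt1 (SD, n = 3). These RPKM levels lay between the 88.3rd percentile (Wt1) and the 97.9th percentile (Upk1b) of all genes in the table. The 3 keratins were much lower, at 7.93 ± 2.61 RPKM for Krt18, 7.36 ± 1.13 for Krt8 and 2.24 ± 0.671 for Krt19, the last at the 31.9th percentile. Among neighbours in this order, the RPKM ranges of Upk1b and Upk3b, of Msln and Wt1, and of Krt18 and Krt8 overlapped across the control siRNA libraries, and the other neighbours did not overlap. With Aurkb siRNA, Upk3b (115 ± 55.4 RPKM) had the highest mean, just above Upk1b (102 ± 23.5 RPKM), and each neighbouring pair from Upk3b down to Msln overlapped. At the low end Krt8 (7.73 ± 2.99 RPKM) and Krt19 (4.47 ± 0.697 RPKM) then overlapped as well, which they had not done with control siRNA.

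**Figure D1:**
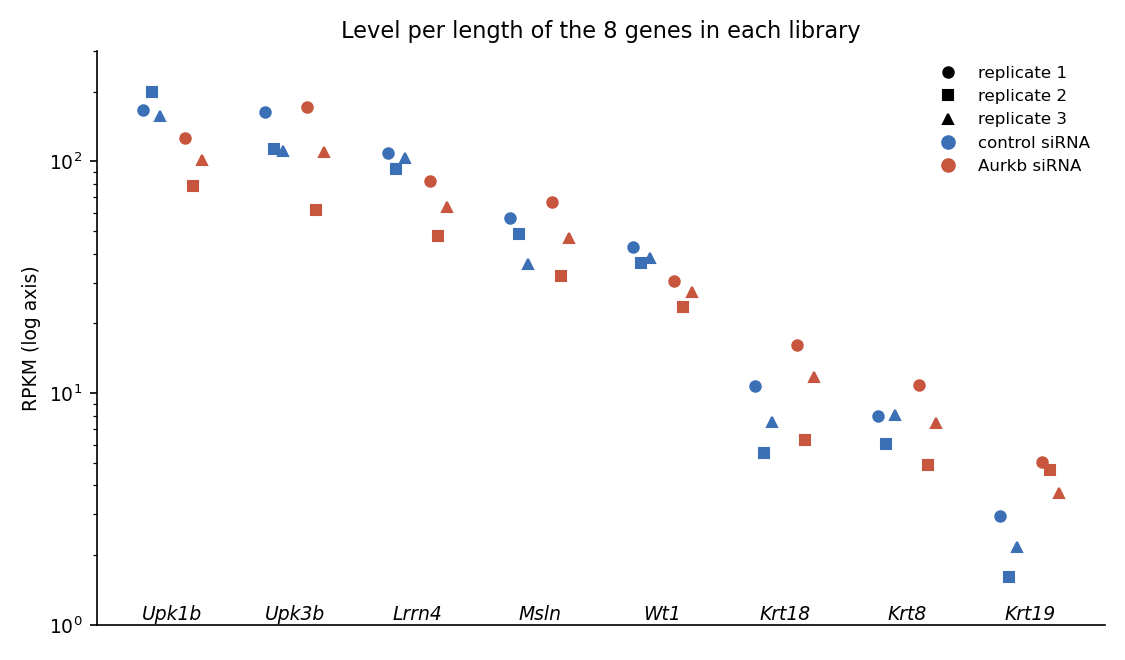
RPKM of the 8 genes in each library, on a log axis, with genes ordered by their mean with control siRNA. Each point is 1 library, colour gives the group and shape the replicate number. Upk1b, Upk3b and Lrrn4 lie at 92.8 RPKM or above in every control siRNA library and the keratins at 10.7 RPKM or below.

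The label of the cells is fibroblast. Of the fibroblast list, Vim, the vimentin gene of mesenchymal cells in general, was at 1133 RPKM with control siRNA. Pdgfra, the receptor that marks lung fibroblasts, was at 145 RPKM, and Thy1 and Tcf21 of the same list were at 16.1 and 15.4 RPKM. Pdgfra fell to 52.4% of its control level. In these cultures the 4 mesothelial markers were at 47.3 to 174 RPKM, a range that includes the level of Pdgfra. Several other genes of the fibroblast list lay far above that range with control siRNA. Dcn and Fn1 were at 1030 and 1249 RPKM, and Col1a1, Col1a2 and Col3a1 at 1758, 2042 and 3272 RPKM. Pdgfrb and Lum lay inside it, at 87.9 and 81.4 RPKM. In bulk RNA, fewer cells of a type and less RNA per cell cannot be told apart. Of 12 markers of lung epithelium, 7 were in the table and 6 were tested. Epcam, the adhesion molecule of epithelia, was at 8.28 to 27.8 normalized counts across the 6 libraries, and Cdh1, which encodes E-cadherin, at 9.32 to 37.7. The epithelial list summed to 3.90 to 6.06 RPKM in the control siRNA group and to 2.41 to 2.88 RPKM in the Aurkb siRNA group, beside 1.61 to 2.95 and 3.70 to 5.05 RPKM for Krt19. The part of epithelial cells in the keratin levels was not tested.

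Upk1b encodes uroplakin 1b, a tetraspanin of the urothelial plaque that mesothelial cells also express (Entrez gene 22268, chromosome 16, from 38773182 to 38800203 on GRCm38.p6). It had 8009, 9489.6 and 7562 normalized counts in control siRNA replicates 1, 2 and 3, and 5877, 3805 and 4889 in Aurkb siRNA replicates 1, 2 and 3. The groups did not overlap, and the lowest of the 6 libraries was Aurkb siRNA replicate 2. Upk1b thus fell to 58.1% of control, with a log2 fold change of -0.80 (standard error 0.14, 95% interval -1.12 to -0.47, limma, adjusted p = 0.00238). An exact permutation of the library labels, two-sided, gave p = 0.1, and with 3 against 3 no smaller p is possible. Across genes, libraries that share a replicate number tended to deviate together from their group means. Upk1b did not do so in number 2, where control siRNA replicate 2 was its highest library and Aurkb siRNA replicate 2 its lowest. Within the numbers 1, 2 and 3 its log2 difference was -0.45, -1.32 and -0.63. The call remained with each single library left out, and was lost when both replicate 2 libraries were left out (log2 fold change -0.54, adjusted p = 0.00721 from limma).

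Lrrn4 encodes a leucine-rich repeat protein of the cell surface that is used as a mesothelial marker in the mouse (Entrez gene 320974, chromosome 2, from 132866686 to 132894010). It had the highest mean normalized count of the members with control siRNA. With control siRNA they were 10292, 8724 and 9805, and with Aurkb siRNA 7552, 4516 and 6074. The groups did not overlap, and replicate 2 was the lowest library of both groups. Lrrn4 fell to 62.9% of control, a log2 fold change of -0.70 (standard error 0.16, 95% interval -1.05 to -0.34, limma, adjusted p = 0.00719). Within the replicate numbers it was -0.45, -0.95 and -0.69. The size of this fall rested in part on Aurkb siRNA replicate 2, since without that library the log2 fold change was -0.50 and no longer reached 1.5-fold, although its adjusted p was 0.00548 from limma. Its neighbour in name, Lrrn4cl (LRRN4 C-terminal like, on chromosome 19), fell from 1161 ± 130 to 738 ± 83.7 normalized counts, with log2 differences of -0.65, -0.64 and -0.67 within the replicate numbers, and was under 1.5-fold (log2 fold change -0.57) without control siRNA replicate 1.

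Upk3b encodes uroplakin 3b, a single-pass uroplakin that marks the mesothelium (Entrez gene 100647, chromosome 5, from 136038496 to 136044993). Its normalized counts were 9118, 6211 and 6127 with control siRNA and 9282, 3446 and 6113 with Aurkb siRNA. Replicate 1 was high in both groups, Aurkb siRNA replicate 2 was the lowest of the 6 libraries, and the groups overlapped. Its log2 fold change of -0.28 had a 95% interval from -0.97 to 0.41 (adjusted p = 0.503 from limma), an interval that holds falls as large as that of Upk1b. Within the replicate numbers 1 and 3 the log2 differences were 0.03 and -0.00, and within number 2 it was -0.85. Without Aurkb siRNA replicate 2 the log2 fold change turned to 0.10.

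Msln encodes mesothelin, a surface protein tethered by a lipid anchor that binds MUC16 (Entrez gene 56047, chromosome 17, from 25748613 to 25754378). It had 3304, 2767 and 2082 normalized counts with control siRNA and 3734, 1851 and 2704 with Aurkb siRNA. Both the highest and the lowest of the 6 libraries were Aurkb siRNA libraries. The log2 fold change was -0.01 with a 95% interval from -0.54 to 0.53 (adjusted p = 0.98 from limma), and within the replicate numbers the differences were 0.18, -0.58 and 0.38. The mean normalized count was 101.7% of control, so the sign of the difference depends on whether means or logarithms are compared.

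Wt1 itself (Entrez gene 22431, chromosome 2, from 105126529 to 105173614) was measured at 3623, 3047 and 3202 normalized counts with control siRNA. With Aurkb siRNA it was measured at 2483, 1996 and 2304. Every Aurkb siRNA library was below every control siRNA library, and the spread within a group was among the smallest of the 8 genes (coefficient of variation 9.05% and 10.9%). Wt1 was thus at 68.7% of control, a log2 fold change of -0.54 (standard error 0.09, 95% interval -0.74 to -0.34, limma, adjusted p = 0.00144). It passed the threshold on adjusted p and missed the 1.5-fold minimum, so that it was not called. The log2 differences within the replicate numbers were close to each other, at -0.54, -0.61 and -0.47. Without Aurkb siRNA replicate 1 (log2 fold change -0.61) or without control siRNA replicate 2 (-0.60) it was called lower. The table has 1 row for Wt1, so its splice forms could not be separated. Wt1os, the noncoding gene that lies head to head with Wt1 on the other strand, was at 123 ± 42.2 and 146 ± 12.9 normalized counts, and the annotated spans do not overlap.

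**Figure D2:**
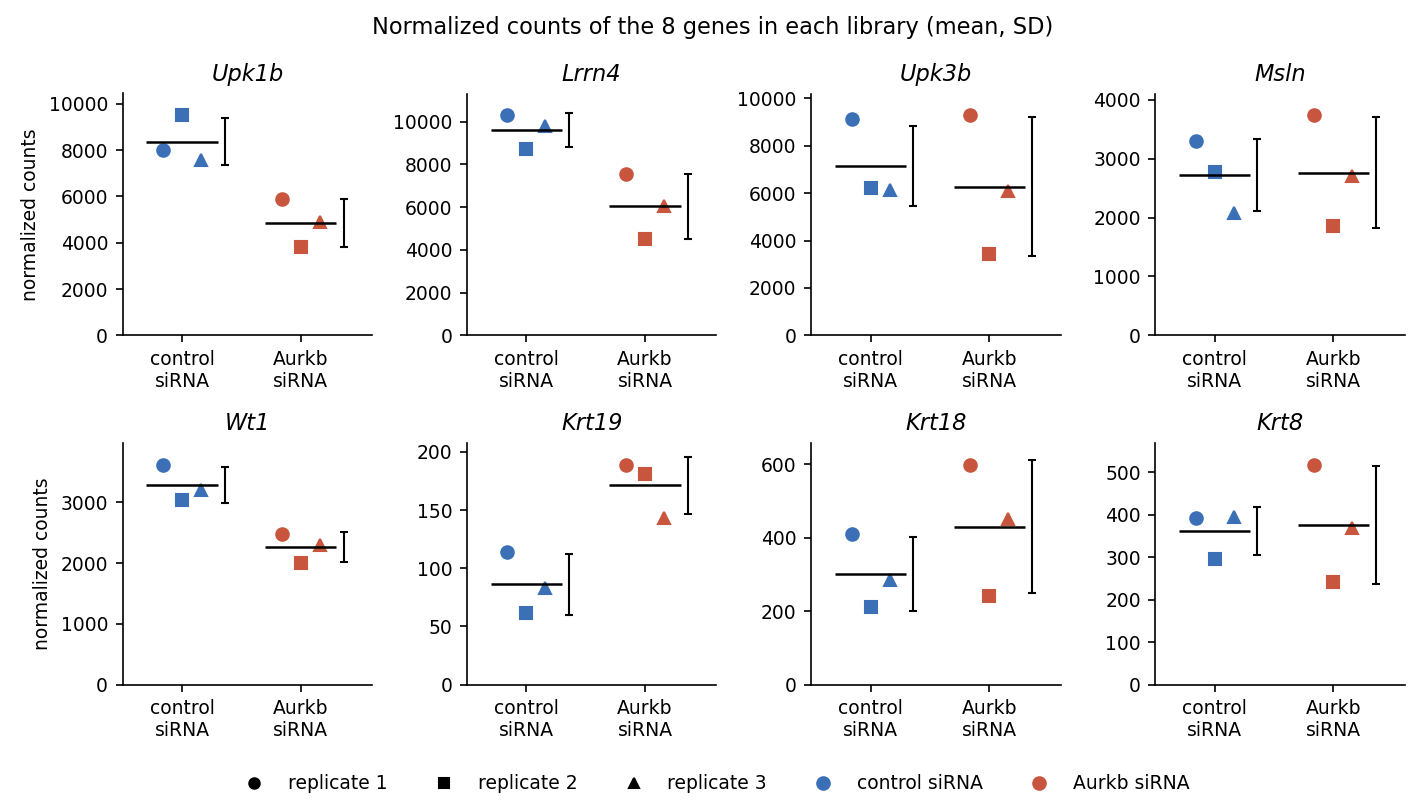
Normalized counts of the 8 genes in the 6 libraries, with each axis starting at 0. Points are libraries, shape gives the replicate number, horizontal lines are group means and bars show 1 SD. For Upk1b, Lrrn4 and Wt1 all Aurkb siRNA points lie below the control siRNA points, for Krt19 all lie above, and the other 4 genes overlap.

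Krt19 encodes keratin 19, the smallest type I keratin, which lacks most of the tail domain of other keratins (Entrez gene 16669, chromosome 11, from 100140810 to 100145926). It was counted by 127, 67 and 91 reads with control siRNA and by 197, 175 and 109 reads with Aurkb siRNA. After scaling these were 114, 61.7 and 83.3 normalized counts against 189, 181 and 143. The lowest Aurkb siRNA library was above the highest control siRNA library. Krt19 rose with a log2 fold change of 1.01 (standard error 0.21, 95% interval 0.527 to 1.499, limma, adjusted p = 0.00545), and the differences within the replicate numbers were 0.73, 1.54 and 0.78. Krt19 was called higher under every alternative tried, leaving out both replicate 2 libraries included (log2 fold change 0.75).

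Krt18, the type I partner of keratin 8 (Entrez gene 16668, chromosome 15, from 102028216 to 102032026), had 409.7, 210.1 and 286 normalized counts with control siRNA. With Aurkb siRNA it had 599, 240.2 and 452. The groups overlapped because Aurkb siRNA replicate 2 was low, though within each replicate number the Aurkb siRNA library was the higher, by log2 differences of 0.55, 0.19 and 0.66. A log2 fold change of 0.47 was estimated, with a 95% interval from -0.268 to 1.201 (adjusted p = 0.283 from limma). Without Aurkb siRNA replicate 2 it was 0.84 and called higher (adjusted p = 0.0268 from limma).

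Krt8, the type II keratin of the pair (Entrez gene 16691, chromosome 15, from 101996711 to 102004342), had 393, 296 and 395 normalized counts with control siRNA and 518, 241 and 368 with Aurkb siRNA. The highest and the lowest library were both Aurkb siRNA libraries. The log2 fold change was 0.00 with a 95% interval from -0.54 to 0.54 (adjusted p = 0.998 from limma). Krt8 overlaps the noncoding gene Gm36026 on the other strand and has an annotated pseudogene, Krt8-ps, and neither the strand setting of the counting nor its handling of shared reads is known here. Its count is uncertain to that extent.

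Since keratins work in pairs, the RPKM levels of the simple keratins were also summed by type, a measure chosen after the values were seen. Krt7, the other type II simple keratin, was the most abundant of the 4, at 60.1, 54.8 and 46.3 RPKM with control siRNA and 61.0, 24.2 and 42.8 RPKM with Aurkb siRNA, with overlapping groups (limma, log2 fold change -0.43, adjusted p = 0.227). Type II keratins (Krt7 with Krt8) exceeded type I keratins (Krt18 with Krt19) by 4.98, 8.50 and 5.62 times in RPKM with control siRNA. With Aurkb siRNA the excess was 3.39, 2.66 and 3.24 times. The ratio was thus lower in every Aurkb siRNA library (mean 6.37 ± 1.88 against 3.10 ± 0.385, SD, n = 3 each, p = 0.1, the smallest possible, in the exact permutation of libraries). Groups that do not overlap were also found for 50.3% of the ratios between pairs of tested genes with reads in every library. The type II sum and the type I sum each overlapped between the groups. Krt19 made up 22.2% ± 0.520 of the type I sum with control siRNA. It made up 23.8%, 42.7% and 23.9% of it in Aurkb siRNA replicates 1, 2 and 3, so that replicate 2, where Krt18 was low and Krt19 was not, stood apart. Of the other 17 keratins on a list, 6 were in the table and 5 were tested. Of these 5, 1 was called higher (Krt80, a type II keratin, from 75.1 ± 17.3 to 118 ± 16.7 normalized counts) and 0 were called lower, where 12.3% of all genes tested were called in either direction. The call of Krt80 remained in 2 of the 6 fits that left out 1 library, which were those that left out control siRNA replicate 1 and Aurkb siRNA replicate 2 (in the other 4, limma's adjusted p reached 0.0773).

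Read together, 2 of the 8 members were called lower, where 7.67% of all genes tested were, and 1 was called higher, where 4.64% were. That is 37.5% of the members against 12.3% of all genes in either direction. The members were chosen with earlier results of these libraries known, so that this share is not independent evidence. At an adjusted p of 0.05 or less with no minimum fold, 4 of 8 members passed (Upk1b, Lrrn4, Wt1 and Krt19), against 40.0% of all genes, and the same 4 had groups that did not overlap, against 52.2% of all genes. The last 2 shares are near the background. The median log2 fold change of the members was -0.14, and that of all genes tested was 0.00.

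Ratios within a library do not depend on how the libraries were scaled, so the 28 ratios of RPKM between pairs of members were compared. The groups did not overlap in 16 of the 28 pairs, near the 50.3% of such ratios over all pairs of tested genes with reads in every library, and the exact permutation test could give no p below 0.1 in any (0.175 after adjustment over the 28 pairs). The ratio of Upk1b to Msln was 2.90, 4.10 and 4.34 with control siRNA and 1.88, 2.46 and 2.16 with Aurkb siRNA. The ratio of Lrrn4 to Msln was 1.90, 1.92 and 2.87 against 1.23, 1.49 and 1.37. In both ratios each Aurkb siRNA library was below each control siRNA library, a difference that does not pass after adjustment over the pairs. In contrast, the ratio of Upk1b to Lrrn4 was 1.53, 2.14 and 1.52 against 1.53, 1.66 and 1.58, with overlapping groups. The ratio of Krt19 to Krt18 was 0.275, 0.291 and 0.289 against 0.312, 0.746 and 0.314. It was higher in each Aurkb siRNA library, by a small step in replicates 1 and 3 and a large one in replicate 2.

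The spread inside the Aurkb siRNA group had a common order. In 7 of the 8 members, Krt19 being the exception, the normalized counts ran from replicate 1 over replicate 3 down to replicate 2, an order that 19.9% of all genes tested had. Replicate 1 was the highest Aurkb siRNA library in all 8 members, against 33.1% of all genes tested. It was also the highest control siRNA library in 6 of the 8, again against 33.1% of all genes tested. Of the 10 other mesothelial markers tested, 6 had the same order of the Aurkb siRNA libraries. Over the members the summed RPKM was 464 to 560 with control siRNA and 509, 259 and 371 in Aurkb siRNA replicates 1, 2 and 3. The genes share these libraries, and the order was noticed in the data, so it is a description of the 6 libraries. The summed RPKM of the smooth muscle and pericyte list was highest in replicate 2 of both groups. It was 1105, 1435 and 1300 in control siRNA replicates 1, 2 and 3 and 1748, 2539 and 1940 in Aurkb siRNA replicates 1, 2 and 3. Tagln and Acta2 had the highest RPKM of that list, and not all of its genes went this way. Mcam and Cspg4 had their lowest Aurkb siRNA count in replicate 2. The part of this list in the spread of the mesothelial markers was not tested.

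**Figure D3:**
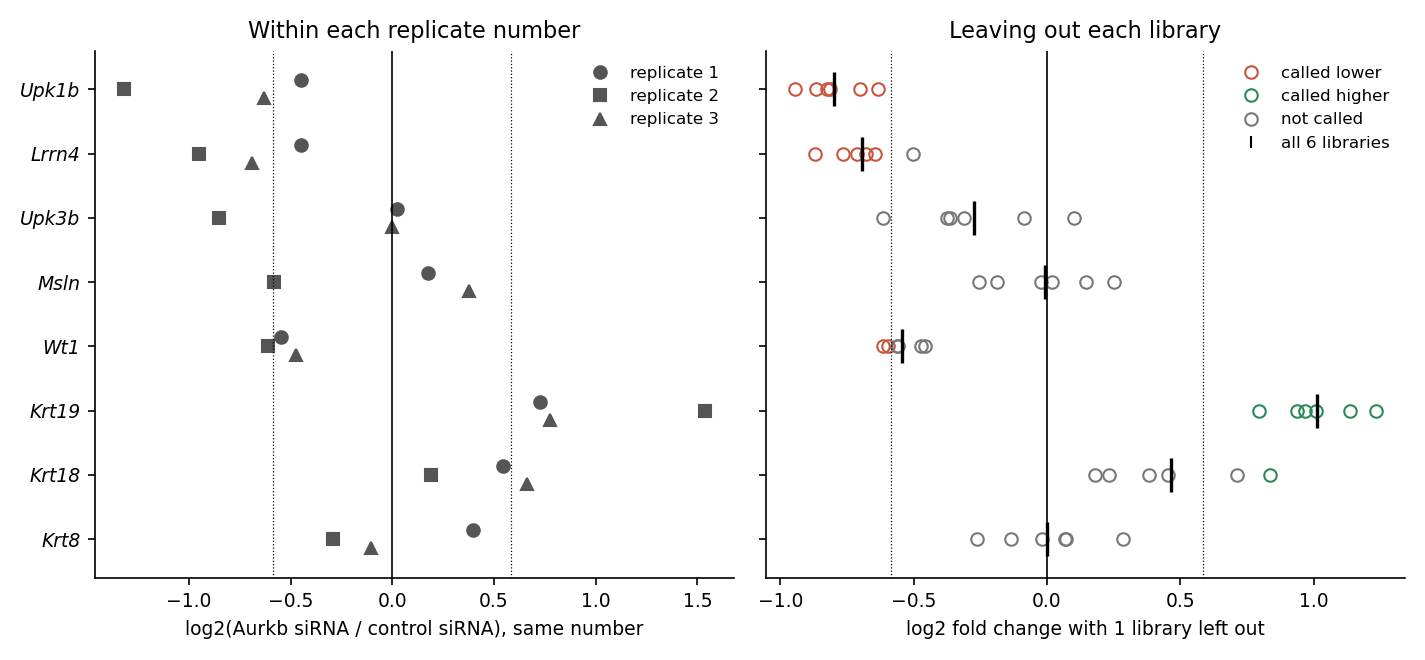
Left, log2 difference between the Aurkb siRNA and control siRNA libraries of the same replicate number; right, log2 fold change with each of the 6 libraries left out in turn (circles) beside that with all libraries (bars). Dotted lines mark 1.5-fold. The differences of Wt1 lie between -0.61 and -0.47 in the 3 numbers, whereas those of Upk3b are near 0 in 2 of them and -0.85 in number 2.

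Other markers of mesothelium gave a mixed picture. Of 12 on a list, 10 were in the table and all 10 were tested, while Calb2 and Muc16 had no row under these symbols. Of the 10, 1 was called lower and 0 were called higher, with a median log2 fold change of -0.22. That is 10.0% called, against 12.3% of all genes tested. The one called was Cldn15, a claudin of tight junctions, with 374, 319.8 and 326 normalized counts against 201, 100.4 and 145 (limma, log2 fold change -1.24, adjusted p = 0.00184). Bnc1, which encodes the zinc finger protein basonuclin 1, was at 2967 ± 111 and 2275 ± 379 normalized counts, and Rspo1, a secreted enhancer of WNT signalling, at 2156 ± 65.3 and 1594 ± 327. Both passed the adjusted p (0.0169 and 0.0212 from limma) without reaching 1.5-fold. Aldh1a2, an enzyme of retinoic acid synthesis, and Anxa8, an annexin, differed in the other direction, also below 1.5-fold, at 3567 ± 521 and 4387 ± 394 normalized counts and at 416 ± 12.96 and 577 ± 80.2. These rises passed the adjusted p as well (0.0419 and 0.00651 from limma). The summed RPKM of these 10 genes ranged from 405 to 426 across the control siRNA libraries and from 353 to 461 across the Aurkb siRNA libraries, so the groups overlapped.

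Markers of other cell types moved in these libraries as well. Across all genes tested, 7.67% were called lower and 4.64% higher. Of 11 endothelial markers, 10 were called lower and 0 higher, with a summed RPKM of 69.5 to 87.7 against 35.6 to 44.1. Pecam1 and Kdr, defining markers of endothelium, fell from 1397 ± 220 to 641 ± 71.99 and from 1212 ± 168 to 444 ± 49.4 normalized counts. Of 10 hematopoietic markers, 8 were in the table and 6 were tested. Of these 6, 2 were called higher and 2 lower. Mpo rose from 0.610 ± 1.06 to 59.9 ± 9.51 normalized counts and S100a8 from 4.25 ± 2.09 to 30.6 ± 1.59. Cd68 fell from 645 ± 67.0 to 199 ± 59.3, and Lyz2 from 291 ± 69.8 to 164 ± 52.3 with overlapping groups. Cd14 and Csf1r were not called, at 1548 ± 434 and 221 ± 51.5 with control siRNA. Ptprc, which encodes the pan-leukocyte protein CD45, had 6.21 normalized counts or fewer in every library. Of 6 epithelial markers tested, 2 were called lower (Aqp5 and Sftpc). Of 11 fibroblast markers 3 were called lower and 0 higher, and of 10 smooth muscle and pericyte markers 4 were called lower and 3 higher. The part of the cell mixture in the changes of Upk1b, Lrrn4 and Wt1 was not tested.

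The genes that act with WT1 were then examined. Of 10 tested cofactors, partners and neighbours of WT1, 1 was called higher and 0 lower, with a median log2 fold change of 0.05 (0.00 over all genes). That is 10.0% called, against 12.3% of all genes tested. The one called was Basp1, which encodes the corepressor that turns WT1 from an activator into a repressor in kidney cells. It had 2785, 3411 and 3081 normalized counts with control siRNA and 6565, 6575 and 6731 with Aurkb siRNA, with no overlap and a coefficient of variation of 1.40% in the Aurkb siRNA group. Its log2 fold change was 1.103 (standard error 0.07, limma, adjusted p = 1.76e-05), so that Basp1 rose while Wt1 was at 68.7% of control. Aurkb, the targeted gene, which the study examined as a gene under WT1 control, had 99.5, 108 and 134 normalized counts with control siRNA and 37.4, 52.8 and 28.9 with Aurkb siRNA.

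Of 24 genes described as WT1 targets in kidney, gonad, heart or cell lines, 21 were tested, 4 were called higher and 5 lower (42.9%, against 12.3% of all genes), with a median log2 fold change of -0.01. The list holds Aurkb itself and was put together with earlier results of these libraries known, so that its share is not independent evidence. Podxl, which encodes podocalyxin, a WT1-activated gene of podocytes that endothelium and mesothelium also express, fell from 1089 ± 169 to 515 ± 72.2 normalized counts. Csf1, the macrophage growth factor, rose from 16329.8 ± 1296 to 37387 ± 1788. Ereg, an EGF receptor ligand, rose from 288 ± 24.6 to 1004 ± 275, and Myc, the growth regulator, from 613 ± 18.2 to 998 ± 36.6. The other genes called lower were Bcl2, Gas1 and Egr1, and the other gene called higher was Acta2, the gene for α-smooth muscle actin. Acta2 was under 1.5-fold without Aurkb siRNA replicate 2 (log2 fold change 0.46), and Egr1 without that library or without control siRNA replicate 1 (-0.57 in both). Cdh1, repressed or activated by WT1 depending on the tissue, was not called at its low count (adjusted p = 0.165 from limma, 0.0345 with the replicate block, where it was called lower).

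Genes of the filament network and of the transition between epithelial and mesenchymal states completed the comparison. Of 19 tested keratin-linking, desmosomal and other filament genes, 3 were called higher and 1 lower, with a median log2 fold change of 0.00. That is 21.1% called, against 12.3% of all genes tested. Pkp2, a plakophilin of desmosomes, rose from 449.8 ± 19.7 to 680.2 ± 55.3 normalized counts. Dsc2 and Dsg2, the desmosomal cadherins, rose from 7.002 ± 2.72 to 21.3 ± 3.32 and from 37.6 ± 4.73 to 65.8 ± 21.4, both at low counts. Evpl, the envoplakin gene, fell from 59.2 ± 3.75 to 31.4 ± 16.1. With 1 library left out, Dsc2 remained called in 6 of 6 fits, Pkp2 in 3 (log2 fold change 0.54 to 0.65), and Dsg2 and Evpl in 1 each (adjusted p up to 0.12 and 0.0931, limma), Dsg2 only without Aurkb siRNA replicate 2 and Evpl only without Aurkb siRNA replicate 1. Vim, the intermediate filament of mesenchymal cells, stayed within 55047 to 57525 normalized counts in all 6 libraries. Of 12 tested genes of epithelial to mesenchymal transition, 0 were called with limma, 0 with voom and 1 (Cdh1, lower) with the replicate block. At an unadjusted p under 0.05 there were 7, and at the adjusted p alone 6 of 12, where 40.0% of all genes tested passed. Zeb1 had the smallest p (2269.8 ± 146 and 1798 ± 35.8 normalized counts).

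**Figure D4:**
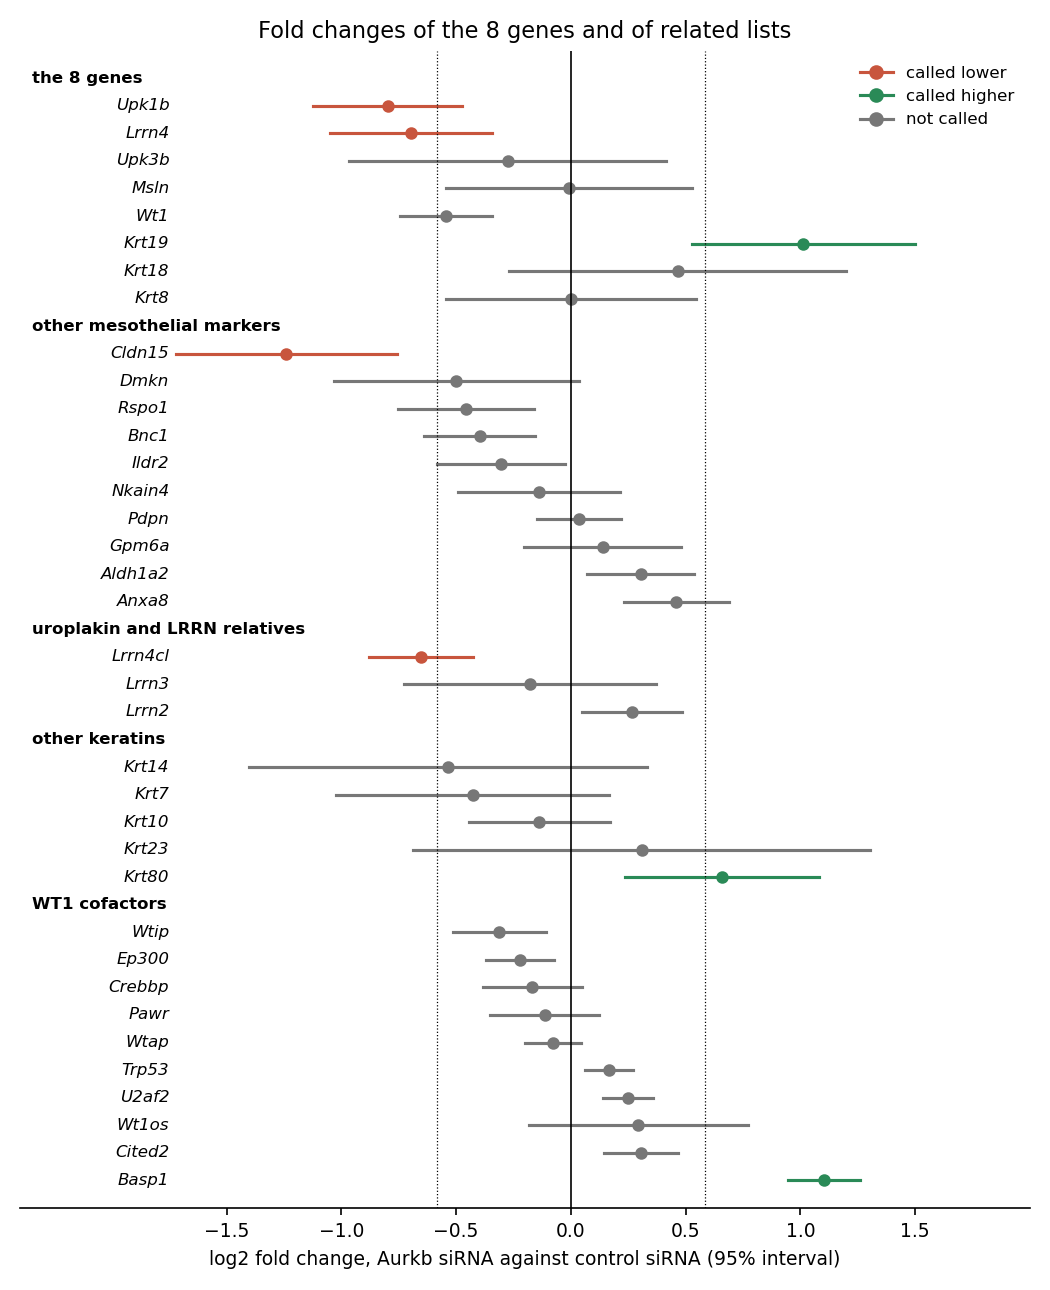
Log2 fold changes (points) with 95% intervals (lines) for the 8 genes and the tested members of 4 related lists, from the fit over all 6 libraries. Dotted lines mark 1.5-fold and colours give the call. Cldn15 has the lowest value shown (-1.24) and Basp1 the highest (1.103).

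The genes whose profile over the 6 libraries was most like that of each called member and of Wt1 were searched among the 11928 tested genes that averaged 50 normalized counts or more. The measure was the root mean square difference of log2(normalized count + 1) less the control mean. The closest to Upk1b were Mylk3, Trp53cor1 and Slc22a18 (0.0885 to 0.114). Closest to Lrrn4 were Sv2a, Mfap2 and Fndc5 (0.0582 to 0.0938), and closest to Wt1 were Plxnb1, Gaa and Mtss1 (0.032 to 0.0461). For Krt19 the closest were Noct, Aass and Cd80 (0.145 to 0.188), so that the profile of Krt19 was matched less closely than that of Wt1. No other mesothelial marker or keratin was among these 12 genes.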

How the data were processed

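RNA of 6 libraries was analysed. Tools named in the processing notes of the submitters are TopHat, DESeq, bcl2fastq and CASAVA 1.8, with the mm10 build; how reads were counted, with which annotation and strand setting, is not given in the sources used here. For each library the authors deposited RPKM values. They also deposited signal values, which are group means of counts divided by DESeq size factors, and ratio (fold) values, log2 fold values and p-values of their own comparison, which were not used. The RPKM steps gave the relative depth of the libraries, and the deposited group means gave the size factors and the scale of each gene. Whole read counts were recovered from both (100% whole within 0.001 reads, 20820596 to 30441954 counted reads per library) and divided by the size factors (0.761 to 1.12). Genes averaging 10 normalized counts or more in either group were fitted on log2(normalized count + 1), which understates changes of low genes, with limma 3.58.1 (R 4.3.3, trend on), and p-values were adjusted over all 13906 genes. The members and gene lists were chosen with earlier results of these data known. Named genes were the members, Aurkb, called genes of the lists (up to 4 a list, smallest p first), defining markers and the 3 most similar profiles. Other list genes (Bnc1, Rspo1, Aldh1a2, Anxa8, Krt7, Wt1os, Egr1, Bcl2, Gas1, Acta2, Thy1, Tcf21, Cspg4 and Zeb1) were picked with their values known. So were Fn1, Col1a1, Col1a2, Col3a1, Pdgfrb, Cd14 and Csf1r.

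The labels do not say that the replicate numbers pair the libraries. Across genes, deviations from the group means correlated at 0.395, 0.173 and 0.214 for the same number and at -0.243 to 0.0492 for different numbers. Alternatives were other scalings, pseudocounts, filters, RPKM, voom, a replicate block and leaving out libraries. Coordinates and promoters are from RefSeq (GRCm38.p6, the mm10 assembly), and gene spans for overlaps from GENCODE M21. Exact tests used scipy 1.17.1 and figures matplotlib 3.10.9 under Python 3.11.15.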

Additional observations from a re-analysis of the deposited data

How the results depend on the processing

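Of the 136 log2 fold changes obtained for the 8 members under the alternatives, 120 kept their direction and their side of the thresholds. Krt19 remained called higher in all 17 alternatives, and Upk1b lower in all but the one without both replicate 2 libraries. Leaving out each library in turn gave ranges of log2 fold changes of -0.95 to -0.63 for Upk1b, -0.87 to -0.50 for Lrrn4, -0.61 to -0.46 for Wt1 and 0.80 to 1.23 for Krt19. The ranges were -0.61 to 0.10 for Upk3b, -0.26 to 0.25 for Msln, -0.26 to 0.29 for Krt8 and 0.18 to 0.84 for Krt18. With quantile normalization Msln was at 0.0075. Leaving out both replicate 2 libraries, an alternative chosen after seeing the data, gave -0.54 for Upk1b and -0.57 for Lrrn4, neither then called, 0.0112 for Upk3b and 0.28 for Msln, so that 1 member (Krt19) was called. In the fit with a replicate block, which takes the numbers as pairs, no member changed its call. The adjusted p of Krt18 went from 0.283 to 0.00285 (limma) at the same log2 fold change of 0.47, under 1.5-fold, and those of Upk1b, Lrrn4, Wt1 and Krt19 were 0.000356, 2.98e-05, 4.46e-06 and 0.000581.

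Across the table, 1067 genes were called lower and 645 higher. With log2(RPKM + 1) the counts were 535 and 310, with the adjusted p alone 2850 and 2711, and with a 2-fold minimum 380 and 224. Leaving out each library gave 897 to 1114 lower and 575 to 633 higher, and 3 to 4 called members. With the stricter spelling GCGGGGGCG of the promoter motif, which 2.91% of all promoters hold, 0 of the 4 promoters of members had a match, in place of 2. Of 408 counts of called genes in the other lists, 377 stayed within 1.5 times. The cause of these changes was not tested. Krt19, with 67 to 197 reads per library, had the fewest reads of the members, and counting error is largest there relative to the level.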
